A study of Mus musculus with 8 samples.

Results

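Trace fear conditioning in wild-type right hippocampus was followed on 4 of the 8 arrays of the series: the 2 arrays of trained wild-type mice (WTR) against the 2 of naïve wild-type mice (WNR), taken by their titles. The labels give C57BL/6 males aged 6 to 8 weeks for all groups. The methods name the wild-type mice as C57BL/6J and describe the knockout line as bred to a C57/BL6 background. Elsewhere the study calls the wild-type mice littermates of the knockouts. Tissue was pooled, with the right hippocampus of 3 animals in each group. WTR mice were placed in the conditioning chamber on the days before and then had trace fear conditioning. They were killed directly after a short test of contextual memory on the following day, whereas WNR mice were untrained. The study does not make clear whether naïve mice were also placed in the chamber. Exposure to the chamber, foot shock, training and recall cannot be told apart in this comparison. The other 4 arrays hold trained (KTR) and naïve (KNR) mice that lack Cav3.2, the T-type calcium channel encoded by Cacna1h, and they serve here as the second genotype and for the estimate of the spread. The sources do not say clearly whether the 2 arrays of a group carry separate pools or the same RNA, so a p-value here reflects only how far arrays of a group differ, and that spread may be technical.

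In trace fear conditioning a tone and a foot shock are separated by an empty interval, and linking them across that gap needs the hippocampus. Recall of such a memory is known to switch on immediate early genes in active neurons within minutes, among them Fos, Egr1 and Arc. Later waves of transcription are known to touch synaptic, metabolic and protein turnover genes. Whole hippocampus mixes neurons with glia and vessels, and differences in cell number and in RNA per cell cannot be told apart in such bulk tissue.

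The intensities were linear and quantile normalized by the authors, with an array median between 484.7 and 485.4. Precision is limited by having 2 arrays a group. Values were raised to a floor of 100 before taking log2, and 15787 probes, which lay above 100 on at least 2 of the 4 wild-type arrays, were tested with limma. The duplicates correlated at 0.9908 in WTR and 0.9875 in WNR, against 0.9773 to 0.9834 between the groups. On the first principal component of all 8 arrays, with 44.4% of the variance, KTR replicate 2 (41.0) and KNR replicate 1 (-37.9) lay farthest out and the WNR arrays, at -0.7 and -16.3, lay between them. On the second, with 22.3%, the WNR arrays stood apart, at -27.8 and -25.0, while the other 6 lay above 0. On the third component, with 12.8%, the WTR arrays lay at 20.2 and 20.9 and the other 6 below -1. Markers of the hippocampal fields were present on every wild-type array, since none of the 12 measured genes of dentate granule cells, the 8 of CA1 or the 12 of CA2 and CA3 was under 100 there. C1ql2, a secreted synaptic protein of granule cells, had 20024 and 20916 in WTR against 21205 and 20569.9 in WNR, and Fibcd1, a CA1 marker, had 1711 and 1719 in WTR against 1679 and 2186 in WNR.

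When only the 4 wild-type arrays were fitted, no probe passed an adjusted p of 0.05, although 3935 had an unadjusted p under 0.05 and 890 an adjusted p under 0.1. The smallest adjusted p was 0.0986, and 8 probes, of which 7 were higher, passed SAM, the method the study used. When all 8 arrays were fitted with a mean per group, so that the knockout duplicates added to the estimate of the spread, 995 of the 15787 probes passed (6.3%). Of these 520 were higher (3.29%) and 475 lower (3.01%) in trained mice. This second fit was chosen with earlier results of these data known, in which fits of 4 arrays called almost nothing. Throughout, a probe is called when it passed in that second fit, and a pair of values in parentheses after a gene gives the log2 difference of WTR minus WNR ± its standard error and the adjusted p of that limma fit. These calls rest on the full set of arrays: without WTR replicate 1 none passed (3089 at an unadjusted p under 0.05), without WTR replicate 2, WNR replicate 1 or WNR replicate 2 between 1 and 2 did, without either KNR array none (3972 at an unadjusted p under 0.05) and without either KTR array 350. With the replicate number as a block none passed either (3811 at an unadjusted p under 0.05). The differences themselves were modest, with a median size of 0.63 on the log2 scale among called probes and 0.21 among all tested, and 27 called probes were over 2-fold higher and 16 over 2-fold lower. All 995 called probes had no overlap between WTR and WNR, as had 56.7% of all tested probes.

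**Figure D1:**
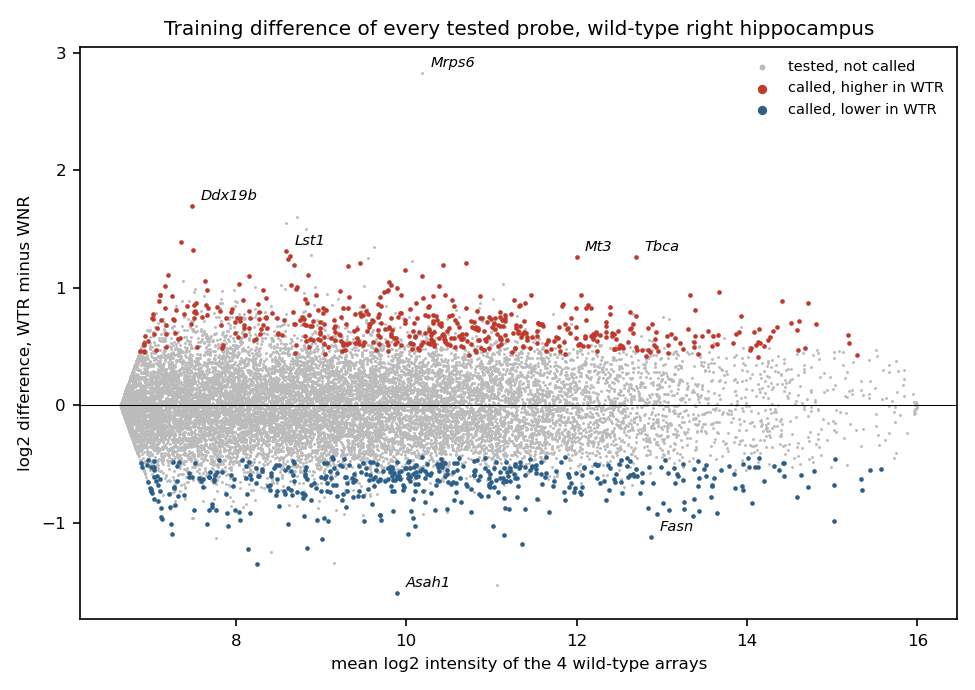
The log2 difference of WTR minus WNR (vertical) is plotted against the mean log2 intensity of the 4 wild-type arrays (horizontal) for the 15787 tested probes. Grey points were not called, red points are the 520 called higher and blue points the 475 called lower in trained mice, and the uncalled Mrps6 lies highest, at 2.83.

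In most called probes the naïve arrays were the ones that differed from the rest. Both WNR arrays lay above or below all 6 other arrays in 834 of the 995 called probes (83.8%), compared with 3847 of all tested probes (24.4%). Both WTR arrays lay beyond all others in 376 called probes (37.8%), compared with 1725 of all tested (10.9%). Calls were made on WTR minus WNR, and all 995 had no overlap between these groups, against 56.7% of tested probes. That choice raises both shares, so all tested probes are not a like baseline for them. In 565 called probes only WNR was apart and in 107 only WTR was.

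Ddx19b, an RNA helicase that releases mRNA at the nuclear pore, was the named gene with the greatest called rise. It had 351 and 298 in WTR against 96.4 and 86.5 in WNR, and the knockout arrays, at 103 and 96.2 in KTR against 95.2 and 83.2 in KNR, lay with the naïve mice. Only the trained wild-type arrays were high, and the highest of the other 6 was 103. Since WNR lay under the floor of 100, the gene was at least 3.23-fold higher (log2 difference 1.69 ± 0.11, adjusted p = 0.015). With a floor of 200 the difference was 0.69 and still passed. The probe was tested only because both WTR arrays lay above 100, so the filter fixed the sign of its difference.

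Mt3, the metallothionein of brain that binds zinc and copper, had 6403 and 6304 in WTR against 2706 and 2589 in WNR (log2 difference 1.26 ± 0.10, adjusted p = 0.019). Tbca, a chaperone that holds beta-tubulin during its folding, had 9894 and 10729 in WTR against 4093 and 4499 in WNR (1.26 ± 0.12, 0.019). Lst1, a leukocyte transcript of the MHC region, had 566 and 656 in WTR against 227 and 264 in WNR (1.32 ± 0.12, 0.019). In these genes WNR was the lowest group. For Tbca the knockout arrays, at 10352 and 8762 in KTR against 8945 and 9253 in KNR, overlapped the range of the trained wild-type arrays, and Lst1 had 523 and 520.5 in KTR against 528 and 515 in KNR. 2310061I04Rik had 237 and 297 in WTR against 101 and 101 in WNR (1.39 ± 0.18, 0.025), with 259.7 and 186 in KTR against 318 and 284 in KNR. With a floor of 200 its difference was 0.41 and no longer passed.

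Mrps6, a protein of the small mitochondrial ribosomal subunit, had the greatest difference of all but was not called. Its intensity was 3119.5 and 3086 in WTR against 4.18 and 1908 in WNR, so the difference of 2.83 ± 1.12 (adjusted p = 0.16) rests on 1 naïve array on which the probe lay at the lowest value of the table. Without WNR replicate 1 the difference was 0.70. Ddx19b, Mrps6, 2310061I04Rik, Mt3, Tbca and Lst1 are the genes that the study lists for this comparison, and since they were picked on these same arrays, the 5 calls among the 6 are not independent evidence.

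Further rises above 2-fold came from genes of varied function. Micu3, a brain regulator of calcium uptake into mitochondria, had 601 and 639.8 in WTR against 222 and 297 in WNR (1.27 ± 0.25, 0.036). B2m, the light chain of MHC class I molecules, had 1074 and 856 in WTR against 382 and 467 in WNR (1.18 ± 0.20, 0.031), and it was also higher in trained knockout mice, with 1598 and 1247 in KTR against 809.8 and 626 in KNR. Dynlt1, a light chain of the dynein motor, behaved likewise with 1212 and 1381 in WTR against 719 and 565 in WNR (1.02 ± 0.14, 0.025) and 2594 and 2734 in KTR against 1215 and 1187 in KNR. Lsm12 had 1353 and 849 in WTR against 533 and 401 in WNR (1.21 ± 0.24, 0.038), but its second probe, near the floor, differed by only 0.14 (adjusted p = 0.54). The other named rises were Cfap298, a cilium protein, with 2067 and 2095 in WTR against 681 and 1219.6 in WNR, Krt10, a keratin, with 1569 and 1451 in WTR against 659 and 697 in WNR, and Acyp2, an acylphosphatase, with 791 and 577 in WTR against 279 and 353 in WNR. Their log2 differences were 1.19, 1.16 and 1.11 (adjusted p = 0.04, 0.025 and 0.038). Folr1, a folate receptor, is described with the choroid plexus genes.

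Asah1, the lysosomal acid ceramidase, had the greatest fall. It had 486 and 620.2 in WTR against 1581 and 1741 in WNR, with 1213 and 1243 in KTR against 1349 and 1558 in KNR, so the trained wild-type arrays were the lowest and the naïve wild-type arrays the highest of all 8. The log2 difference was -1.60 ± 0.15 (adjusted p = 0.019). Enzymes of lipid synthesis were among the other falls. Fasn, fatty acid synthase, had 5386 and 4809.7 in WTR against 11121 and 10976 in WNR (-1.12 ± 0.10, 0.019), and Sqle, the squalene epoxidase of cholesterol synthesis, had 332 and 444 in WTR against 825 and 702 in WNR (-0.99 ± 0.16, 0.03). Scap, the sterol sensor that escorts SREBP, had 9733 and 9292 in WTR against 14013 and 14819 in WNR (-0.60 ± 0.11, 0.033). Fasn was lowest in WTR and highest in WNR, while Sqle fell in trained knockout mice as well, with 285 and 326 in KTR against 619 and 639 in KNR. These were single genes, for of the 19 measured genes of cholesterol synthesis only Sqle and Scap were called, and the median difference of the 19 was 0.04.

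Plec, a large linker of the cytoskeleton, had 1704 and 1792 in WTR against 3849 and 4055 in WNR (-1.18 ± 0.10, 0.019), and Tcaf1, a protein that binds TRP channels, had 1476 and 1619 in WTR against 3182 and 3474 in WNR (-1.10 ± 0.11, 0.019). Genes of the vessel wall fell in Ptprb, a phosphatase of endothelium, with 1499.8 and 1419 in WTR against 2496 and 3522 in WNR (-1.02 ± 0.17, 0.03), and Vwf, von Willebrand factor, with 151 and 135 in WTR against 268 and 309 in WNR (-1.01 ± 0.13, 0.025). Ly6a, another endothelial gene, was higher instead, with 730.3 and 740.3 in WTR against 554 and 506 in WNR (0.47 ± 0.11, 0.047), and the other 9 of the 12 endothelial genes were not called. Spata13, a guanine nucleotide exchange factor, had 330.5 and 368 in WTR against 779 and 753 in WNR (-1.14 ± 0.15, 0.025), and Prr5l, a partner of mTOR complex 2, had 206 and 167 in WTR against 442 and 423 in WNR (-1.22 ± 0.16, 0.025). Sned1, an extracellular matrix protein, had 253 and 303 in WTR against 534 and 579 in WNR (-1.01 ± 0.16, 0.03). The zinc finger gene Zfp467 had 156 and 182 in WTR against 361 and 327 in WNR (-1.03 ± 0.20, 0.037), with a difference of -0.54 at its other probe that was not called (adjusted p = 0.11). The transcript 4930505N22Rik had 226 and 159 in WTR against 653 and 359 in WNR (-1.35 ± 0.30, 0.047), and the knockout arrays, at 170.2 and 224 in KTR against 113 and 134 in KNR, were also below both naïve wild-type arrays.

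**Figure D2:**
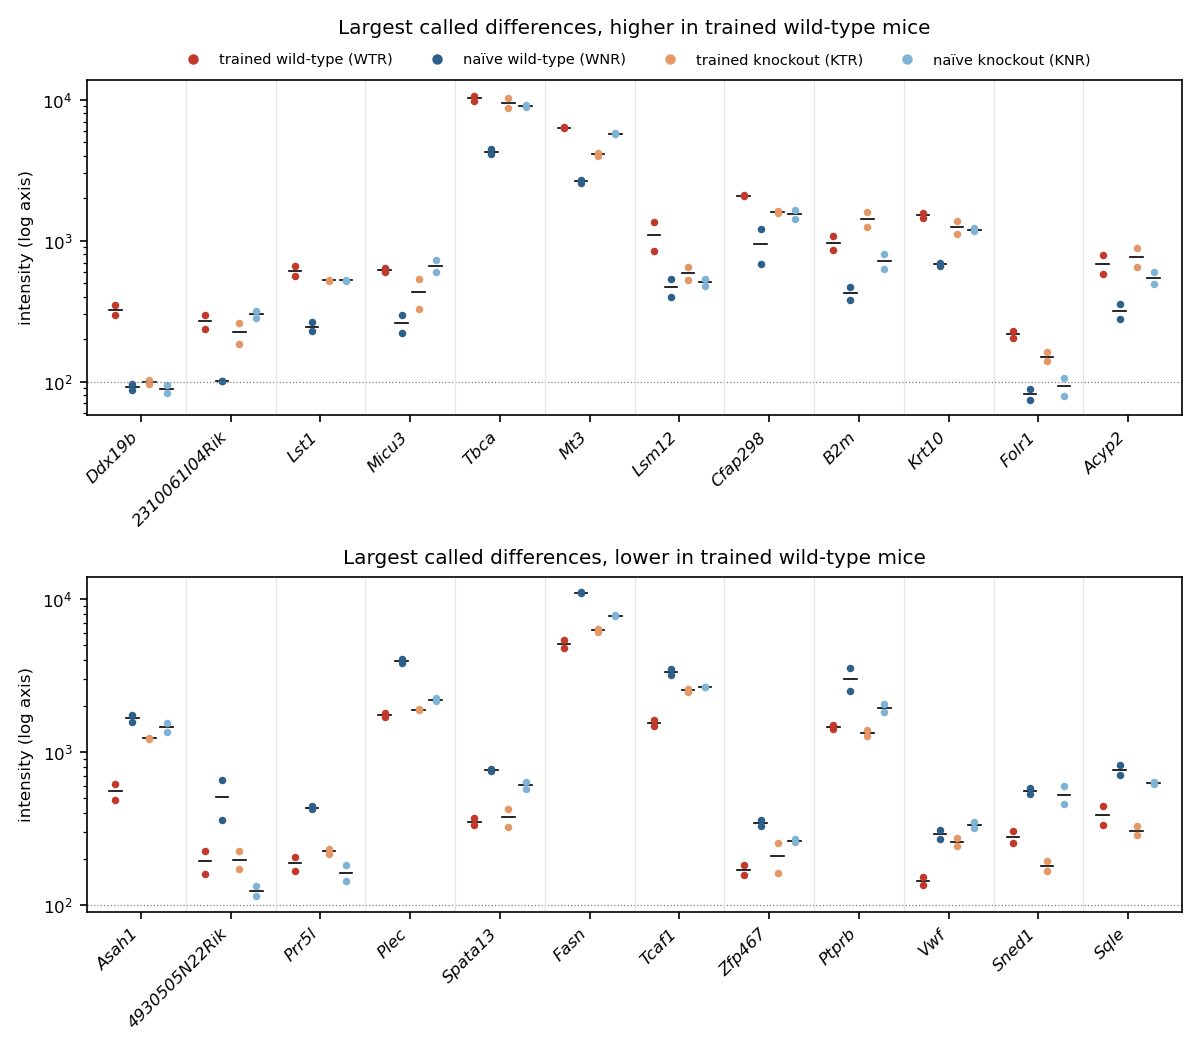
Intensity (log axis) of the 12 genes with the greatest called rise (upper panel) and the 12 with the greatest called fall (lower panel) on each array, with a bar at the mean of the 2 arrays of a group and a dotted line at the floor of 100. Trained and naïve wild-type arrays do not overlap in any of the 24, and WNR lies beyond all other arrays in all but Ddx19b, Lsm12, Folr1, Vwf and Sned1.

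Respiratory complex I, the entry point of electrons into the mitochondrial respiratory chain, had the highest median of the functional gene lists. With 1 probe per gene, 715 of 10713 genes were called (6.67%), 361 higher (3.37%) and 354 lower (3.3%), with a median difference of -0.01. The counts of called genes in all lists below are to be read beside these shares. Of the 32 measured complex I subunits, 12 rose and none fell, and the median was 0.45. Values were higher in 30 of the 32, and the exceptions, Ndufa10 and Ndufs1, differed by -0.03 each. Ndufb11 had 1177 and 1284 in WTR against 518 and 761 in WNR (0.97 ± 0.18, 0.035) and Ndufb4 had 13707 and 14902 in WTR against 8261 and 7976 in WNR (0.82 ± 0.10, 0.025). Ndufb7 had 3545 and 4191 in WTR against 2633 and 2165 in WNR (0.69 ± 0.15, 0.046), and Ndufa3 had 13226 and 12216 in WTR against 7540.3 and 8692 in WNR (0.65 ± 0.11, 0.031). The other subunits that rose, Ndufa4, Ndufa7, Ndufa13, Ndufb8, Ndufc1, Ndufs5, Ndufs7 and Ndufv3, differed by 0.44 to 0.60. Both WNR arrays were apart from all others in 18 of the 32 subunits and both WTR arrays in 11, and in the knockout the median of the list was -0.07. Between the naïve groups, KNR minus WNR, a comparison that shares the WNR arrays, the median was 0.41.

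The remaining respiratory complexes had a median of 0.31 over 30 genes, of which 2 rose and none fell. They were Uqcr11, a small subunit of complex III, with 7767 and 8972 in WTR against 4577 and 5079.7 in WNR (0.79 ± 0.12, 0.028), and Sdhc, a membrane anchor of complex II, with 4227 and 3677 in WTR against 2454 and 2435 in WNR (0.69 ± 0.12, 0.032). The second probe of Sdhc differed by 0.45 without a call (adjusted p = 0.11). The mitochondrial ribosome, which translates the subunits encoded in mitochondrial DNA, had a median of 0.35 over 63 genes, and 10 rose while none fell. Its median was -0.17 for KTR minus KNR and 0.32 for KNR minus WNR, and WNR was apart from all others in 32 of the 63 genes and WTR in 11. Mrpl54 had 780.4 and 907 in WTR against 411 and 446 in WNR (0.97 ± 0.13, 0.025) and Mrpl22 had 3563 and 3161 in WTR against 1513 and 2150.2 in WNR (0.90 ± 0.17, 0.035). Mrps24 had 7266 and 7120.2 in WTR against 3679 and 4403 in WNR (0.84 ± 0.12, 0.028) and Mrpl52 had 2929.7 and 2766 in WTR against 1657 and 1723 in WNR (0.75 ± 0.11, 0.027).

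The cytosolic ribosome and the proteasome, the main machines of protein synthesis and breakdown, each had 2 called genes, all higher. Rpl23 had 14451 and 15054 in WTR against 10061 and 10712 in WNR (0.51 ± 0.11, 0.044), and its other 2 probes were called as well, at 0.65 and 1.0. Rpl14 had 241 and 290.1 in WTR against 143 and 168 in WNR (0.77 ± 0.16, 0.041). The medians were 0.22 over 18 ribosomal and 0.21 over 35 proteasome genes, of which Psmb7, a catalytic subunit, had 16821 and 18449.9 in WTR against 12795 and 11617 in WNR (0.53 ± 0.11, 0.04) and Psme1, a cap subunit, had 3982 and 4512 in WTR against 3069 and 2902 in WNR (0.51 ± 0.11, 0.045). The second probe of Psme1 differed by 0.26 (adjusted p = 0.16). For KNR minus WNR, which shares the WNR arrays, the medians were 0.38 for the remaining respiratory complexes, 0.30 for the cytosolic ribosome and 0.25 for the proteasome, and for KTR minus KNR they were 0.01, -0.10 and -0.20. Of 40 translation factors 2 were called, both lower: Eif3c had 7117 and 7420.1 in WTR against 11639 and 11346 in WNR (-0.66 ± 0.11, 0.03) and Eif4g2 had 4961 and 4803 in WTR against 6831 and 6941 in WNR (-0.50 ± 0.10, 0.038). Each of these has another probe that differed by -0.12 and was not called.

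**Figure D3:**
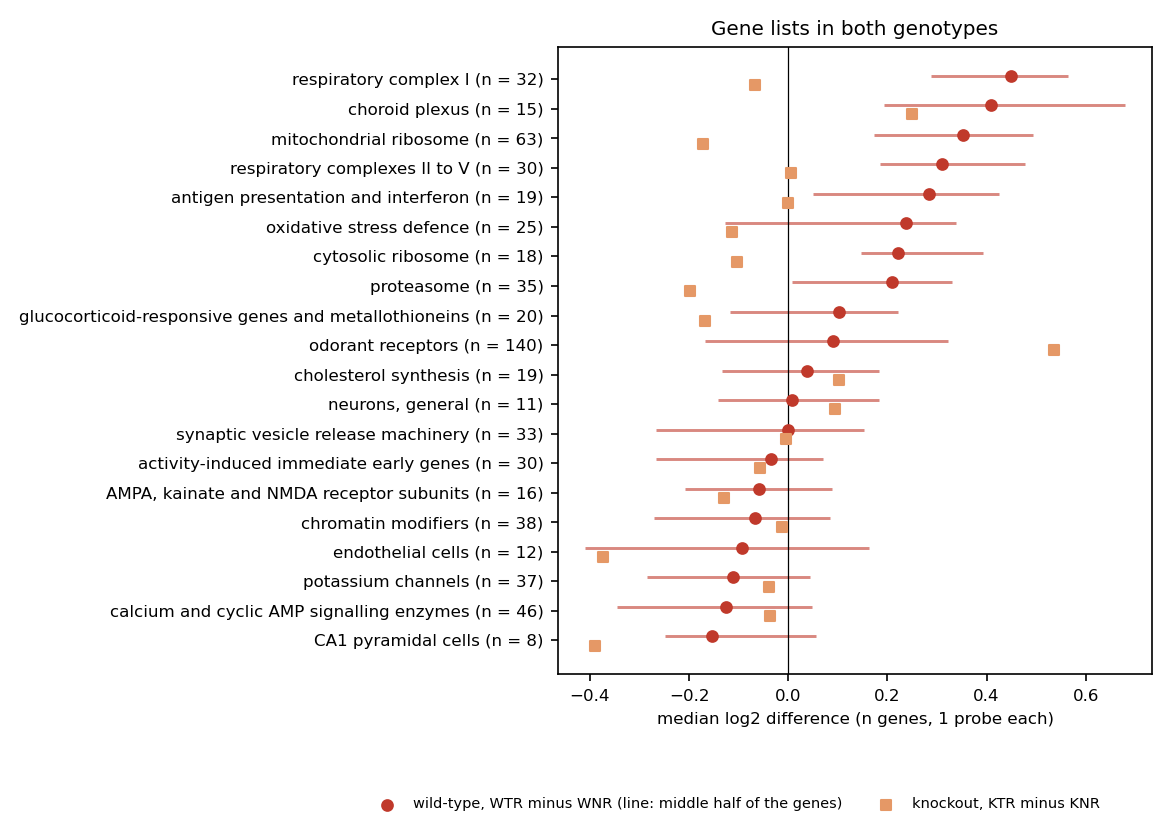
Median log2 difference over the genes of 20 lists, as red circles for WTR minus WNR with a line over the interquartile range of the genes and as orange squares for KTR minus KNR, with the number of tested genes behind each name. Respiratory complex I has the highest wild-type median at 0.45 and a knockout median of -0.07, while immediate early genes lie near 0 in both genotypes.

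Genes that rose or fell also differed in size. Called higher genes had a median genomic span of 7.87 kb and called lower genes one of 51.6 kb, compared with 22.9 kb over all tested genes, where the span is that of the gene in the RefSeq annotation of GRCm38.p6 and at least 99.4% of each set had one. In 5 bins of span with equal numbers of genes, from the shortest to the longest, the median of WTR minus WNR was 0.15, 0.04, -0.01, -0.10 and -0.13. The share of genes called higher was 8.04% in the shortest bin and 0.842% in the longest, and the share called lower was 0.795% and 6.22%. In the knockout, KTR minus KNR, which holds no WNR array, the medians were 0.03, 0.01, -0.005, -0.04 and -0.06. The medians of KNR minus WNR, between the naïve groups and with the same WNR arrays, were 0.11, 0.06, -0.005, -0.06 and -0.10, whereas those of KTR minus WTR lay between 0.00 and 0.02. The gradient was thus present in both comparisons that hold the WNR arrays and, with a smaller range, in KTR minus KNR. Training and a trait of the WNR arrays cannot be told apart in the wild-type gradient. This is a description across genes, which are not independent replicates.

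**Figure D4:**
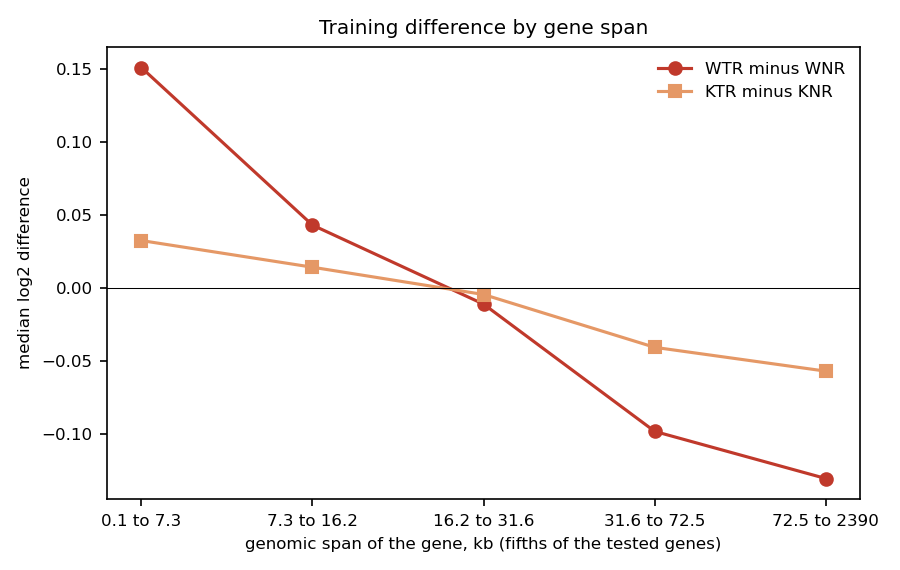
Median log2 difference of the tested genes (vertical) in 5 bins of genomic span in kb (horizontal), as red circles for WTR minus WNR and as orange squares for KTR minus KNR. In wild-type mice the median is 0.15 in the shortest genes and -0.13 in the longest.

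Immediate early genes are the classical mark of recent neuronal activity, and 30 of a list of 41 were measured. None was called higher, 3 were called lower and 27 were not called, with a median of -0.03. Fos, a subunit of the AP-1 factor, had 539 and 628 in WTR against 877 and 850.2 in WNR (-0.57 ± 0.12, 0.044). Nr4a2, an orphan nuclear receptor, had 2244 and 2165 in WTR against 3014 and 3644 in WNR (-0.59 ± 0.12, 0.038), and its second probe had 724 and 499 in WTR against 1287 and 1021 in WNR (-0.93 ± 0.19, 0.039). Dusp1, a phosphatase that switches off MAP kinases, had 470.0 and 539 in WTR against 710.3 and 719 in WNR (-0.51 ± 0.12, 0.048).

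All of these calls lay close to the threshold. The knockout arrays gave 583 and 506 in KTR against 642 and 664 in KNR for Fos, 382 and 354 in KTR against 732 and 670.5 in KNR for Dusp1 and 3192 and 3223 in KTR against 2723 and 2748 in KNR for Nr4a2. Fos was thus highest in naïve wild-type mice, Nr4a2 was lowest in trained wild-type mice, and Dusp1 was lower after training in both genotypes. Egr1, a zinc finger factor, had 6088 and 4563 in WTR against 8188 and 7048 in WNR without overlap, but its difference of -0.53 ± 0.17 was not called (adjusted p = 0.11). Arc, which moves AMPA receptors off the synapse, had 1354 and 1531 in WTR against 1773 and 1473 in WNR, with overlap (-0.17 ± 0.13, 0.46). Among the others of highest intensity, Nrn1, Jun, Plk2, Homer1 and Junb differed by -0.04 to 0.05, and their arrays overlapped. Npas4, a factor specific to active neurons, had 237 and 282 in WTR against 280.4 and 290.1 in WNR (-0.14 ± 0.12, 0.49).

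**Figure D5:**
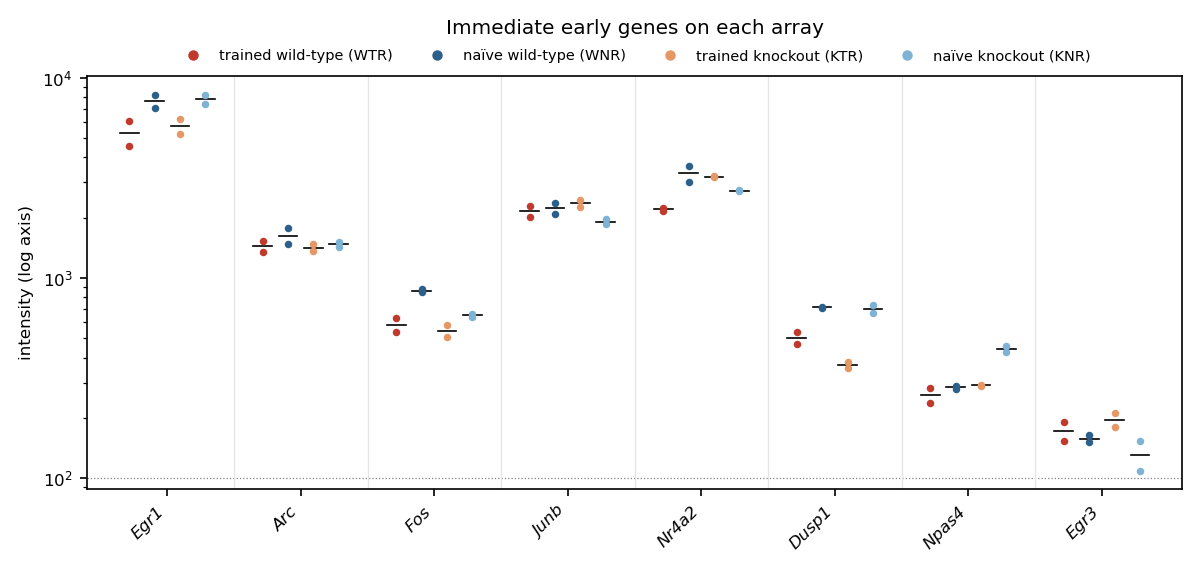
Intensity (log axis) of 8 immediate early genes on each array, with a bar at the mean of the 2 arrays of a group and a dotted line at 100. Fos, Nr4a2 and Dusp1 are lower in WTR than in WNR, whereas Arc and Junb overlap between the groups.

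The promoters of the 3 called immediate early genes are shown because CREB, the factor that answers calcium and cyclic AMP, is known to drive such genes. Capitals mark TGACG, the core of the cyclic AMP response element, on either strand, in the stretch of 250 bases before to 50 after the gene start (RefSeq, GRCm38.p6). Fos lies at chr12:85473640-85473939 on the + strand, Nr4a2 at chr2:57123954-57124253 and Dusp1 at chr17:26508423-26508722, both on the - strand.
Fos: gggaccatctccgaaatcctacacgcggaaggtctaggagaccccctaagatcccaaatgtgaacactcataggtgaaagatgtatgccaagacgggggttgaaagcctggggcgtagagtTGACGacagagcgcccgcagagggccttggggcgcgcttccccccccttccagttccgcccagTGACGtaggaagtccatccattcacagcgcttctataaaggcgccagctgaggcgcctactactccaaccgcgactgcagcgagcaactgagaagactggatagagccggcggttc
Nr4a2: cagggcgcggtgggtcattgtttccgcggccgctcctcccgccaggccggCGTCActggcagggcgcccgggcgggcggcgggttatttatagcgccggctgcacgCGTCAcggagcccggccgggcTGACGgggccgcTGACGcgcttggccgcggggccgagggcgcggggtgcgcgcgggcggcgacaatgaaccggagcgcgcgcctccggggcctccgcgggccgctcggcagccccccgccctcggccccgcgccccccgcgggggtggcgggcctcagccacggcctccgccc
Dusp1: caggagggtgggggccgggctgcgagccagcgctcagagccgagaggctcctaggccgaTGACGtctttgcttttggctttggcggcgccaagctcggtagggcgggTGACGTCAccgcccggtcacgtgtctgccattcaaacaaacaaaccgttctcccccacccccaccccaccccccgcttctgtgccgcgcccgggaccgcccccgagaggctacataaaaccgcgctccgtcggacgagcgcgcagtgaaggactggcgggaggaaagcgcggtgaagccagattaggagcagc
Fos holds 2 matches, Nr4a2 4 and Dusp1 3, of which 2 of Dusp1 overlap in the palindrome TGACGTCA. Such a match is in 20.8% of all 32851 promoters of the table, in 29.1% of those of tested genes and in 19 of 33 promoters (57.6%) of tested immediate early genes, some of which have more than 1 start. Genes of that list with and without a match were not compared in their training difference.

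The stress list of glucocorticoid targets and metallothioneins had 3 genes called higher and 1 lower of 20. Besides Mt3, these were Mt2, a metallothionein of most tissues, with 46636 and 45286 in WTR against 28856 and 31742 in WNR (0.60 ± 0.14, 0.0497), Sult1a1, a sulfotransferase, with 1098 and 1199.7 in WTR against 822 and 762 in WNR (0.54 ± 0.11, 0.039), and Dusp1, the lower one. Mt1 lay between 65478.5 and 65481.5 on all arrays, at the upper end of the scale, so it was saturated and no difference could be measured. Fkbp5 and Sgk1, established targets of the glucocorticoid receptor, were not called, with 0.22 (adjusted p = 0.35) and -0.34 (0.18). Promoters of Mt1 and Mt2 are known to be switched on by metal-bound MTF1 through the metal response element. The promoters of Mt3 at chr8:94152357-94152656 and Mt2 at chr8:94172368-94172667, both on the + strand, are shown with its core, TGCACNC or TGCGCNC on either strand, in capitals.
Mt3: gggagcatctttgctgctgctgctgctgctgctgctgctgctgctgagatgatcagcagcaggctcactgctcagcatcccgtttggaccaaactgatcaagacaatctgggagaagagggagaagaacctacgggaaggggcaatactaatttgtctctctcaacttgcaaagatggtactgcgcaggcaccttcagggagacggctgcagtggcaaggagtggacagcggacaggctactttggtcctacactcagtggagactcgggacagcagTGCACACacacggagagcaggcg
Mt2: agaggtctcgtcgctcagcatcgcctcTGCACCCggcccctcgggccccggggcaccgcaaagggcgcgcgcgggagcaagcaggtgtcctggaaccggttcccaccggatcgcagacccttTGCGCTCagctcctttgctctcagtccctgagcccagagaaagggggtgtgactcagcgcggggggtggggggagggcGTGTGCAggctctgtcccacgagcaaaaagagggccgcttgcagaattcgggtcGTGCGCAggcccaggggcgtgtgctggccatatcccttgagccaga
The core occurs 4 times in Mt2 and 1 time in Mt3, there 27 bases after the gene start, while 25.7% of all promoters and 35.3% of those of tested genes hold it. Mt1, Mt2 and Mt3 are close in sequence, and cross-hybridization between them was not tested.

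At the synapse, vesicle release genes moved in both directions. Of 33 measured, 2 rose and 3 fell. Cplx2, a complexin that clamps fusion, had 1523 and 1762 in WTR against 897 and 933 in WNR (0.84 ± 0.12, 0.027) and Slc17a7, the vesicular glutamate transporter VGLUT1, had 6641 and 7443 in WTR against 3843 and 4359 in WNR (0.78 ± 0.11, 0.028). Sv2b, a vesicle glycoprotein, fell with 20638 and 17139 in WTR against 31875 and 32555 in WNR (-0.78 ± 0.12, 0.029), and Unc13b, a priming factor, fell with 1223 and 1122 in WTR against 1783 and 1951 in WNR (-0.67 ± 0.11, 0.029). WNR was the group apart in each of these. Among receptors, none of 4 metabotropic glutamate and 10 GABA receptor genes was called, and of 16 ionotropic glutamate receptor genes and auxiliary proteins Cnih2 alone rose, with 4886 and 5104 in WTR against 3291 and 3676 in WNR (0.52 ± 0.11, 0.043). Npy1r, a receptor of neuropeptide Y, was the 1 called gene of 20 in the list of modulator receptors, with 591 and 506 in WTR against 831 and 807 in WNR (-0.58 ± 0.11, 0.035), while Npy itself had 3548 and 3619 in WTR against 2459 and 2502 in WNR (0.53 ± 0.10, 0.035).

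In the calcium and cyclic AMP pathway, 3 of 46 enzymes and channels rose and 4 fell, with a median of -0.13. Ryr2, the calcium release channel of the endoplasmic reticulum, had 2961 and 3243 in WTR against 5218 and 5129 in WNR (-0.74 ± 0.15, 0.038), but its second probe, near the floor, differed by -0.11. Adcy8, a cyclase stimulated by calcium, had 730.3 and 586 in WTR against 1028 and 1009.6 in WNR (-0.64 ± 0.14, 0.043). Prkce, a protein kinase C, had 1131 and 853 in WTR against 559.8 and 586 in WNR (0.78 ± 0.16, 0.039), and its other probe was called too, at 0.69. Camk1, a calmodulin kinase, had 1800.2 and 1769 in WTR against 1255 and 1053 in WNR (0.63 ± 0.12, 0.035). In the MAP kinase cascade 2 of 31 were called: Rasgrf1, an exchange factor that links calcium to Ras, had 16874 and 18289 in WTR against 25378 and 25999.6 in WNR (-0.55 ± 0.10, 0.035), and Hras had 4704 and 5236 in WTR against 3401 and 3547 in WNR (0.51 ± 0.11, 0.041), with an uncalled second probe at 0.48 (adjusted p = 0.058).

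Ion channels showed few calls, and of all genes tested only 6.67% were called. Potassium channels had 2 falls in 37: Kcnd2, which carries the dendritic A-type current, had 568 and 675 in WTR against 1061 and 936 in WNR (-0.69 ± 0.13, 0.035), with an uncalled second probe at -0.69 that differed by -0.68 in the knockout against 0.29 at the first, and Kcnab2, a beta subunit, had 4985 and 4285 in WTR against 6969 and 6849 in WNR (-0.58 ± 0.13, 0.049). None of 12 voltage-gated calcium channel genes and none of 8 sodium and HCN channel genes was called. Cacna1h had 2084 and 2339.9 in WTR against 2575 and 2385 in WNR (-0.17 ± 0.16, 0.57). The knockout arrays had 1036 and 1439.5 in KTR against 1551 and 1489 in KNR, lower than any wild-type array, and the position of this probe with respect to the knockout deletion is not given in the sources used here.

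The list of microtubule and motor genes had 5 rises and 2 falls in 39 genes. Besides Tbca and Dynlt1 these were Mapre3, Dynlrb1 and Dctn3, which rose by 0.55 to 0.65. The falls were Dync1i1, an intermediate chain of dynein, with 3390.2 and 3369.6 in WTR against 5666 and 5261 in WNR (-0.69 ± 0.10, 0.029), and Mapre2, a protein of growing microtubule ends, with 8948 and 8423 in WTR against 14310.3 and 13638 in WNR (-0.69 ± 0.13, 0.035), whose other probe differed by -0.22 without a call. Light chains and the intermediate chain of the same motor thus went in opposite directions. At the nuclear pore 3 structural nucleoporins fell while Ddx19b rose, out of 30 genes. Nup93 had 2028 and 1968 in WTR against 3056 and 3090.3 in WNR (-0.62 ± 0.09, 0.029), Nup210 had 730.3 and 655 in WTR against 1059 and 1103 in WNR (-0.64 ± 0.10, 0.03) and Nup205 had 457 and 497 in WTR against 683 and 738 in WNR (-0.58 ± 0.11, 0.034).

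Of 55 spliceosome genes 5 were called. Lsm2 and Lsm4, small ring proteins, rose, with 289.5 and 364 in WTR against 188 and 209 in WNR (0.71 ± 0.14, 0.035) and 2522 and 2522 in WTR against 1463 and 1625 in WNR (0.71 ± 0.10, 0.028). The helicase Snrnp200, which unwinds snRNAs, fell, with 1034 and 1032 in WTR against 1519 and 1805 in WNR (-0.68 ± 0.12, 0.031), as did Snrpb2 at -0.50 and Sf3b1 at -0.44. Of 54 ubiquitin genes 2 rose and 3 fell, among them the ligase Ube3c, with 325 and 394 in WTR against 552 and 706 in WNR (-0.80 ± 0.18, 0.045), and the conjugating enzyme Ube2o, with 2127 and 2388 in WTR against 4105 and 3721 in WNR (-0.79 ± 0.15, 0.035). Ube2n fell by 0.74 at 1 probe and differed by 0.36 at the other, which was not called. Of 38 chromatin modifiers the deacetylase Hdac6 fell, with 395 and 403 in WTR against 681 and 642 in WNR (-0.73 ± 0.11, 0.029), and so did the histone methyltransferase Ezh1, with 169.7 and 145 in WTR against 289 and 282 in WNR (-0.86 ± 0.14, 0.03).

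Among markers of other cells, those of the choroid plexus, the epithelium that borders the hippocampus and makes cerebrospinal fluid, had a median of 0.41, near that of complex I. Of 15 measured, 5 rose and none fell. Their summed intensity was 39068 and 45350 in WTR and 25311 and 24685 in WNR, and 30872 and 33885 in KTR and 29226 and 30428 in KNR. Ttr, the thyroid hormone carrier that marks this epithelium, had 26361 and 33147 in WTR against 16383 and 15543 in WNR (0.89 ± 0.14, 0.029). Folr1 had 203 and 229 in WTR against 74.2 and 88.6 in WNR, so it was at least 2.16-fold higher (1.11 ± 0.12, 0.025). Kcne2, a potassium channel subunit, had 188 and 209 in WTR against 132 and 109 in WNR (0.72 ± 0.14, 0.035), and Slc13a4, a sulfate transporter, had 230.2 and 257 in WTR against 122 and 159 in WNR (0.81 ± 0.15, 0.035). Igf2, which meninges also express, had 7328 and 6944 in WTR against 4533 and 4665 in WNR (0.63 ± 0.11, 0.03). Clic6 and Kl, other genes of this epithelium, were not called, at -0.02 and 0.22. No member was under 100 in WTR, while Folr1, Sostdc1 and Col8a1 were under 100 on both WNR arrays. Like Ddx19b, these genes were tested only because both WTR arrays lay above 100. The filter thus fixed the sign of their differences, which enter the median and the count of rises of this list. With a floor of 200 the median of the list was 0.17, and Folr1, Slc13a4 and Kcne2, at 0.11, 0.28 and 0.03, no longer passed. The part of the choroid plexus in the other differences was not tested.

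Among markers of neurons and glia, 3 of 12 genes of dentate granule cells, 4 of 16 of astrocytes, 3 of 17 of microglia and 2 of 12 of interneurons were called, beside 6.67% of all genes. The general neuronal list had a median of 0.01 over 11 genes with none called, and its summed intensity was 210896 and 202357 in WTR and 203521 and 206129 in WNR. Snap25, of this list, differed by only -3.1e-05 to 1.0e-05 over all alternatives. Whether its probe was saturated, as Mt1 was, was not tested, so the sum may not show whether the neuronal signal was steady. The second Snap25 probe had 418 and 325 in WTR against 462 and 396 in WNR, with overlap (-0.21 ± 0.32, 0.71). In the list of oligodendrocytes none of 15 was called. Of 16 astrocyte genes, Mt3 and S100b, a calcium-binding protein, rose, and the growth factor receptor Fgfr3 and the factor Sox9 fell, with log2 differences of 0.59 for S100b, -0.52 for Fgfr3 and -0.53 for Sox9. Of 17 microglial genes C1qc, a complement chain, rose with 2149 and 2488 in WTR against 1502 and 1435 in WNR (0.66 ± 0.13, 0.038), as did Lst1, and the fractalkine receptor Cx3cr1 fell with 504 and 581 in WTR against 779 and 901 in WNR (-0.63 ± 0.12, 0.035). In the dentate gyrus list Pcp4, a calmodulin regulator that also marks CA2, rose with 17923 and 18657 in WTR against 8777 and 10005 in WNR (0.96 ± 0.11, 0.025), Marcksl1 rose by 0.87 at 1 probe while its other 3, at 0.40, 0.51 and 0.04, were not called (adjusted p = 0.13, 0.068 and 0.91), and Prox1, the granule cell factor, fell with 352 and 383 in WTR against 571 and 564 in WNR (-0.63 ± 0.14, 0.045). The lists of glutamatergic neurons and of interneurons had medians of 0.21 and 0.22. In the second of these, Pvalb and Npy rose, and Pvalb, a calcium buffer of basket cells, had 5786 and 6394 in WTR against 4403 and 3672 in WNR (0.60 ± 0.13, 0.047).

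The same training was given to mice without Cav3.2, and that comparison shares no array with the wild-type one, though both use the same estimate of the spread. In KTR against KNR 2571 probes were called (16.3%), and 181 were called in both genotypes, 18.2% of the wild-type calls and 7.04% of the knockout calls. Of these 32 rose in both, 98 fell in both, 42 rose in wild-type and fell in knockout mice, and 9 did the reverse. The sign was the same in 57.5% of the wild-type calls and in 55.6% of all tested probes. Falls in both genotypes included Sned1 (-1.01 in wild-type and -1.55 in knockout mice), Sqle (-0.99 and -1.04), Snrnp200 (-0.68 and -1.25) and Prox1 (-0.63 and -1.11). Rises in both included Dynlt1 (1.02 and 1.15), B2m (1.18 and 0.99), Kcne2 (0.72 and 0.65) and Folr1 (1.11 and 0.54), whose wild-type sign the filter fixed.

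The training difference itself, wild-type minus knockout, passed in 844 probes of the limma fit of all 8 arrays (5.35%), 545 with a positive and 299 with a negative value. This count too rested on the full set, since it was between 1 and 140 when any 1 array was left out. Of the 995 wild-type calls, 317 (31.9%) were among the 844, but both tests use the same wild-type arrays. The values that follow are given with this difference and its adjusted p. Pgbd5, a transposase-derived gene, had 365 and 377 in WTR against 193 and 206 in WNR and 124 and 117 in KTR against 286 and 251 in KNR, and its difference of 2.05 (adjusted p = 0.017) came from opposite changes in the genotypes at this probe. The other Pgbd5 probe differed by 0.10 in wild-type and 0.33 in knockout mice, and its difference between genotypes was -0.23 (adjusted p = 0.34), of the opposite sign. Morn2 had 559.7 and 581 in WTR against 285 and 276 in WNR and 279 and 203 in KTR against 546 and 509 in KNR (difference 2.17, adjusted p = 0.024). For Mt3 the value was 1.76 (0.017), and it fell in trained knockout mice, with 3964 and 4224 in KTR against 5703 and 5834 in KNR.

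Other genes that passed this test had the greater difference in the knockout. Spink8, a CA1 transcript, had 2060.3 and 2401 in WTR against 1650.2 and 1324 in WNR but 948 and 807 in KTR against 2310.1 and 1948 in KNR (difference 1.87, adjusted p = 0.032). Mrpl37, of the mitochondrial ribosome, had 185 and 160.3 in WTR against 141 and 141 in WNR and 78 and 99.2 in KTR against 453 and 291 in KNR (2.15, 0.032), and Fam133b had 959.6 and 1149 in WTR against 551 and 753 in WNR and 487 and 319 in KTR against 988 and 957 in KNR (2.01, 0.034). In the opposite direction Usf1, an E-box factor, had 339 and 244 in WTR against 418 and 359 in WNR and 311 and 294 in KTR against 89.6 and 104 in KNR (-2.0, 0.03), but its other probe differed by 0.24 in wild-type and 0.11 in knockout mice, with a difference between genotypes of 0.12 (0.62). Fam71e2 had 1435 and 1055 in WTR against 1439.5 and 1178 in WNR and 1445 and 2213 in KTR against 413 and 574 in KNR (-1.96, 0.041). Probes for odorant receptors, which hippocampus is not known for, were also there, with -2.38 for Olfr275, -2.07 for Olfr657 and -2.03 for Olfr559. Over all 140 odorant receptor genes the median was 0.09 in wild-type and 0.54 in knockout mice. The wild-type median kept its sign in 5 of 8 alternatives (-0.05 to 0.18). Relative to each gene's mean over all arrays, the list median was 0.02 and 0.39 in KTR against -0.50 and -0.16 in KNR. Of the 140, 10 and 1 were under 100 in KTR against 45 and 26 in KNR. The extremes were thus KTR replicate 2 and KNR replicate 1, the arrays farthest out on the first component. In wild-type mice 1 of the 140, Olfr259, was called, with 875 and 894 in WTR against 1326 and 1322 in WNR (-0.58 ± 0.10, 0.032). The wild-type difference of Fasn (-0.80, 0.039), Plec (-0.96, 0.032) and Asah1 (-1.36, 0.032) was more negative than that in the knockout by the same test.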

How the data were processed

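RNA was amplified, labelled with Cy5 and hybridized to one-colour mouse oligonucleotide arrays. The authors deposited intensity values on a linear scale, quantile normalized, per the methods after a floor of 100. The deposited table does not carry that floor, since 5.76% to 5.9% of the values of an array lay below it, and sorted values differed between arrays by 0.178% in the median and 13.7% at most. Background correction and the genome build of the probes are not given in the sources used here. Of 29922 probes 13539 were empty and 16383 had values, of which 13072 carried 1 gene symbol (2101 updated to the RefSeq table of GRCm38.p6, 26 absent from it) and 3311 none.

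Values under 100 were set to 100, and log2 values were tested with limma 3.58.1 in R 4.3.3 (lmFit and eBayes, Benjamini-Hochberg over 15787 probes, threshold 0.05) on the 4 wild-type arrays and on all 8 with a mean per group. A fold is the ratio of the groups' geometric means of floored values, and "at least" marks a lower group under 100 on both arrays. Gene lists used the probe of highest mean intensity per gene, and no test was made on lists. Named genes were the 12 greatest called differences each way among probes with 1 symbol, separate ranges in WTR and WNR, and a higher group that lay above 200 on each of its arrays. Without these conditions, the genes the study lists, Cacna1h, the 8 immediate early genes of highest level and up to 4 called members of a list (or 2 of highest level) were added, and so were the 6 greatest each way of the difference between genotypes, which needed 1 group above 200. All probes of a named gene were read. A few other members were named after their values were seen: C1ql2, Fibcd1, Npas4, Sf3b1, Sostdc1, Col8a1, Fkbp5, Sgk1, Mt1, Clic6, Kl, Ndufa10, Ndufs1 and the called members given as ranges. The members, lists and tests were chosen with earlier results of these data known. SAM, the test of the study, was rewritten. Scripts were tested on simulated data. Floors of 50, 200 and none, another order of floor and normalization, other filters, trended and robust variances, a replicate block and leaving out arrays were tried. Promoters came from RefSeq (GRCm38.p6), and genes without an entry are not shown.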

Additional observations from a re-analysis of the deposited data

Results flagged for a closer look

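The difference of trained minus naïve arrays was itself different between wild-type and knockout for 844 probes. This count is from the test of the difference itself (limma fit of all 8 arrays, Benjamini-Hochberg adjustment). With the replicate number as a block the count was 1. The test reflects only how far arrays of a group differ, and training effects on separate mice were not tested. The named genes among the 844 are given here with the difference, wild-type minus knockout, on the log2 scale. Groups of 2 arrays are too small for a test of outlying arrays.

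Positive values, where the wild-type difference was the higher one, were 2.17 for Morn2, 2.15 for Mrpl37, 2.05 for Pgbd5, 2.01 for Fam133b, 1.93 for Micu3, 1.87 for Spink8, 1.84 for 2310061I04Rik, 1.76 for Mt3 and 1.67 for Ddx19b. Mitochondrial genes had 1.72 for Mrpl54, 1.24 for Uqcr11, 1.24 for Ndufb11, 1.20 for Mrpl22, 0.91 for Mrps24, 0.84 for Ndufb4 and 0.73 for Mrpl52. Synaptic and neuronal genes had 1.44 for Cplx2, 1.10 for Slc17a7, 0.89 for Pcp4 and 0.72 for Marcksl1, a regulator of actin.

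Further positive values were 1.32 for Lst1, 1.24 for Lsm2, 1.20 for the small heat shock protein Cryab, 1.20 for Tbca, 1.10 for Krt10, 1.07 for Rpl14, 0.80 for Rpl23, 0.92 for the deubiquitinase Otub1 and 0.77 for Sult1a1. Vascular, meningeal and myelin genes had 1.07 for Myl9, 0.91 for Mgp, 0.85 for Ly6a, 0.74 for Igf2 and 0.87 for Cldn11, of which Myl9 and Cldn11 were not called in wild-type mice.

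Negative values were -2.38 for Olfr275, -2.07 for Olfr657, -2.03 for Olfr559, -2.02 for 4930505N22Rik, -2.0 for Usf1, -1.96 for Fam71e2, -1.69 for Prr5l, -1.36 for Asah1, -1.03 for Tcaf1, -0.98 for Kcnd2 and -0.96 for Plec. They were -0.85 for Fgfr3, -0.82 for Sv2b, -0.82 for Nr4a2, -0.82 for Nup210, -0.80 for Fasn, -0.79 for Sox9, -0.76 for Dync1i1 and -0.73 for Npy1r.

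Second probes did not always bear these values out. The other probe gave -0.23 for Pgbd5 (adjusted p = 0.34), 0.12 for Usf1 (0.62) and -0.01 for Kcnd2 (0.99). The 3 other probes of Marcksl1 gave 0.64, 0.27 and 0.86 (0.097, 0.38 and 0.068). Of the other 2 probes of Rpl23, 1 passed at 1.15 (0.032) and 1 did not, at 0.48 (0.11), and the other probe of Nr4a2 passed, at -1.27 (0.045).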

How the results depend on the processing

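The fit of the 4 wild-type arrays called no probe in the main setting (3935 at an unadjusted p under 0.05). It called 95 with a floor of 200, 778 with a trended prior variance, 890 at an adjusted p under 0.1 and 8 by SAM (7 higher and 1 lower), and between 0 and 1 when 1 array was left out. The fit of all 8 arrays called 995. It called 1670 with the trend, between 0 and 350 when 1 array was left out, and 0 with both KNR replicate 1 and KTR replicate 2 left out (3935 at an unadjusted p under 0.05). The difference between genotypes was called for 844 probes, for 1567 with the trend, and for between 1 and 140 when 1 array was left out: at most 9 without any 1 wild-type array, KTR replicate 2 or KNR replicate 1, 140 without KTR replicate 1 and 130 without KNR replicate 2. A lone array left in a group was assumed to vary like the other groups. With the other floors, filters, order of normalization and robust variance each count stayed within 1.5 times its main value. The replicate numbers share only a number: deviations of same-numbered arrays correlated at 0.28 between WTR and WNR and between -0.39 and 0.44 in the other pairs of groups. With the number as a replicate block the counts were 520 in the fit of 4 arrays, 0 in that of all 8 (3811 at an unadjusted p under 0.05) and 1 for the difference between genotypes. No called named gene changed its direction under any of these alternatives. For WTR minus WNR this was largely fixed beforehand, because no called probe had overlap between these groups. With the replicate block 101 named probes lost their call. The list medians stayed positive under all 8 alternatives for complex I (0.42 to 0.49), the mitochondrial ribosome (0.33 to 0.37) and the choroid plexus (0.17 to 0.62, lowest with a floor of 200), and negative for immediate early genes (-0.07 to -0.01).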
